A study of Homo sapiens with 6 samples.

Results

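The collagens, laminins and matrix glycoproteins of the breast cancer cell line BT549 were measured by RNA sequencing in 3 ENL-treated and 3 control libraries. The genes were chosen by symbol, as every row of the deposited gene table for a collagen or laminin chain and 17 further matrix genes, namely the glycoproteins FN1, SPARC, TNC, THBS1, THBS2, POSTN, FBN1 and FBN2, the proteoglycans BGN, DCN, LUM and VCAN, and the lysyl oxidases LOX and LOXL1 to LOXL4. This gave 73 of the 19923 genes in the table, of which 55 had enough counts to be tested. BT549 is a mesenchymal-like line of triple-negative breast cancer, and all 6 libraries came from this 1 line. What ENL stands for, its dose, the exposure time and the handling of control cells are not stated in the labels, so ENL is used only as the name of the treatment. Nor is it stated whether the replicates were grown separately, and the p-values therefore cover the spread among these libraries, which could be technical. In bulk RNA, fewer cells of a type and less RNA per cell cannot be told apart.

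The extracellular matrix has a sheet-like part, the basement membrane, built on networks of laminin and collagen IV, and a fibrous part, built on fibrillar collagens, fibronectin and fibrillin microfibrils. A laminin is a trimer of an alpha, a beta and a gamma chain, and collagens are trimers of chains that are hydroxylated and folded in the endoplasmic reticulum, trimmed after secretion and cross-linked by lysyl oxidases. Matricellular glycoproteins such as SPARC, thrombospondins and tenascin bind to this scaffold and to cell receptors. In breast tumours most fibrillar collagen is made by stromal fibroblasts, and carcinoma cells add laminins, cross-linking enzymes and matricellular proteins.

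Levels are given as CPM, the deposited estimated counts expressed as a share of each library's total, in the usual CPM unit, after scaling by edgeR's trimmed mean of M values (TMM), and differences as the log2 fold change of ENL over control with its standard error. A gene was called when the adjusted p (edgeR's quasi-likelihood test, two-sided, Benjamini-Hochberg over all 14086 genes tested) was below 0.05. Library totals were 74457932 to 85310759 units in ENL and 76387436 to 80964005 units in control. From the steps between low values, 1 sequenced fragment was taken to be worth about 4 units. Ribosomal protein genes took 10.9% to 13.4% of the units in ENL and 7.87% to 8.28% in control, and mitochondrially encoded genes 7.71% to 8.64% in ENL and 9.73% to 10.9% in control. The part of these shifts in composition in the changes below was not tested beyond the scalings that follow. The epithelial markers EPCAM and CDH1 were near 0 in all 6 libraries, at no more than 0.249 and 0.358 CPM. KRT8, a keratin of simple epithelia, averaged 38.0 ± 4.20 CPM in ENL and 15.8 ± 2.42 CPM in control. KRT18 averaged 24.0 ± 3.06 CPM in ENL and 26.3 ± 4.41 CPM in control, and KRT19 0.743 ± 0.315 and 0.752 ± 0.238 CPM. Neither KRT18 nor KRT19 passed. The labels give mammary epithelium as the tissue. The mesenchymal marker VIM averaged 5949 ± 503 CPM in ENL and 2744 ± 453 CPM in control (SD, n = 3 each). CDH2 was also higher in ENL (0.88 ± 0.22, adjusted p = 0.0201), while ZEB1 did not pass (0.54 ± 0.39, adjusted p = 0.320). Of 9 markers of leukocytes, endothelium, pericytes and fibroblasts, among them PTPRC, CD3E, PECAM1, CDH5, VWF, PDGFRA, PDGFRB and RGS5, CDH5 was at 0 in every library, and PECAM1 was at 0 in all ENL libraries. The summed level of the 9 was 10.1 to 11.9 CPM in ENL and 8.42 to 16.9 CPM in control, and most of it came from VWF and RGS5.

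More matrix genes fell than rose in ENL-treated cells. Of the 55 tested, 20 were lower and 8 were higher in ENL, and 27 did not pass. The shares over all genes tested were 18.4% lower and 20.0% higher, or 38.4% called in all, against 36.4% lower and 14.5% higher among the matrix genes. The median log2 fold change of the matrix genes was -0.59, beside -0.02 over all genes tested. Falls of at least 2-fold were called for 11 of them, where 6.02% of all genes passed that limit, and rises of at least 2-fold for 2 of them, where 5.91% did. The 3 ENL libraries lay wholly below the 3 control libraries for 29 matrix genes and wholly above for 12, beside 27.6% and 26.4% of all genes. Because the genes that passed the filter on low counts include some that passed through the higher group alone, these counts describe the tested genes and not all 73. The filter also works on deposited units, taken as about 4 to a fragment. With counts divided by 4, 46 matrix genes were tested, with a median of -0.49 beside -0.009 over all genes. With library totals alone as the scale, 4 matrix genes were higher and 24 lower, beside 12.8% and 28.4% of all genes, the median of all genes was -0.23 and that of the matrix genes -0.77. Upper-quartile scaling gave 6 higher and 22 lower, beside 16.7% and 22.3% of all genes, with medians of -0.11 for all genes and -0.68 for the matrix genes.

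**Figure D1:**
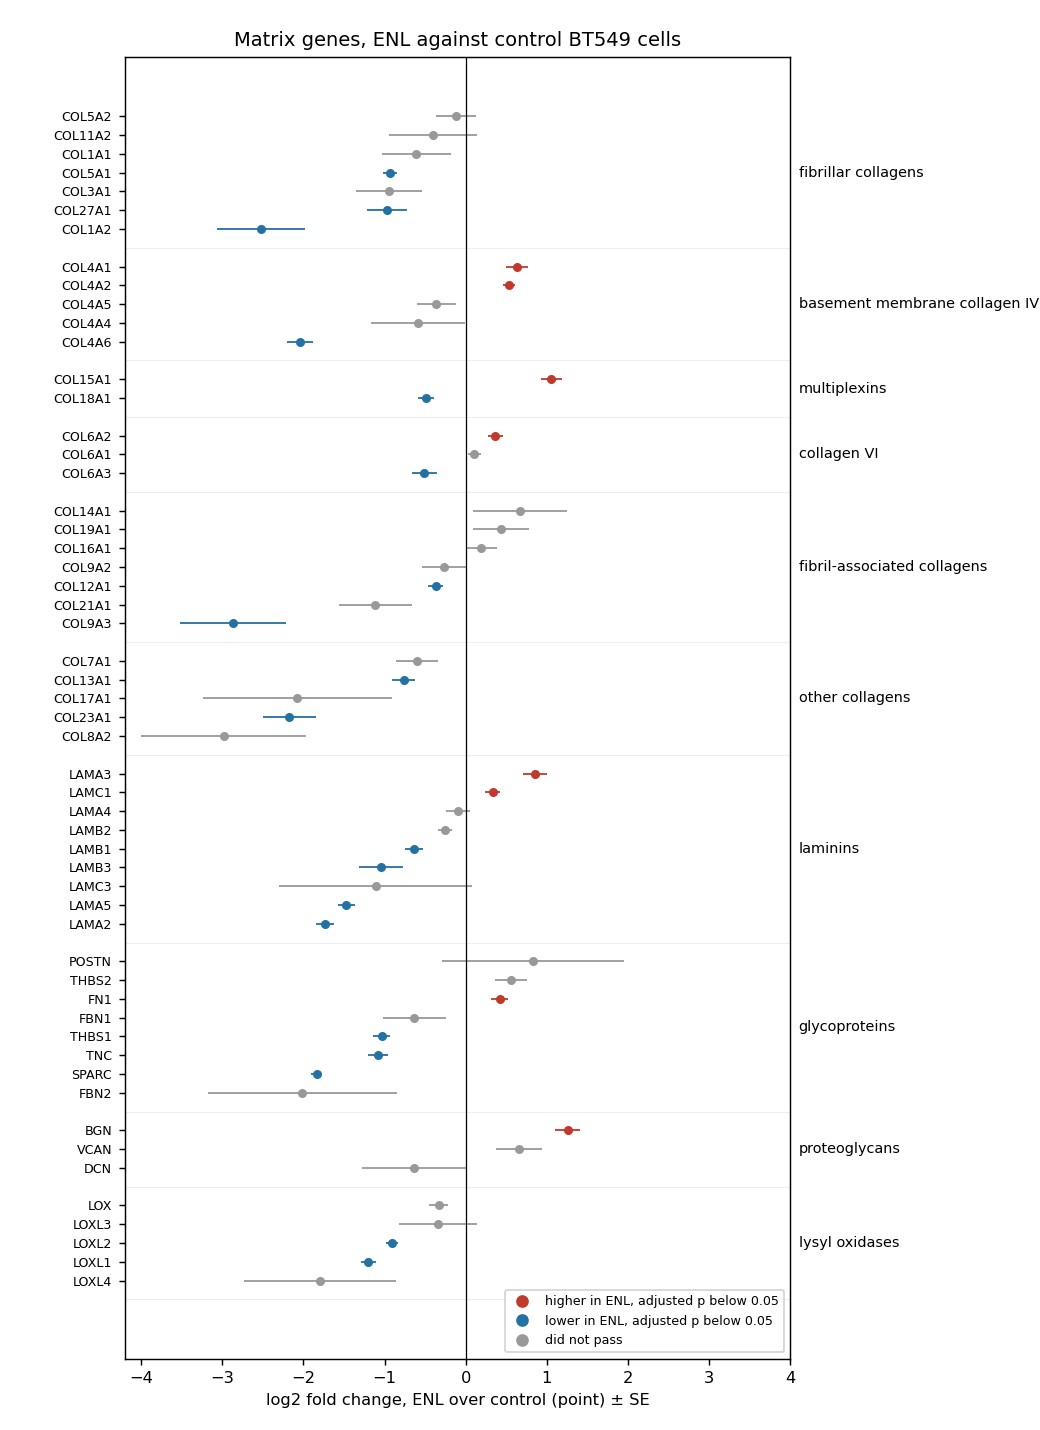
Log2 fold change of ENL over control (x axis, points) with its standard error (bars) for 54 of the 55 matrix genes tested, grouped by class, from 3 libraries per group. The 19 genes in blue were lower and the 8 in red higher in ENL at an adjusted p below 0.05, and both colours occur within the laminins, collagen IV, the multiplexins, collagen VI and the glycoproteins.

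All the matrix genes together made up 4141 ± 375 CPM in ENL and 5613 ± 153 CPM in control (SD, n = 3 each). The summed level ranged from 3924 to 4574 CPM over the ENL libraries and from 5452 to 5755 CPM over the control libraries, so the groups did not overlap. Much of the difference lay in LAMA5 and LOXL2, with means of 335 and 553 CPM in ENL and 930 and 1039 CPM in control. Without LOXL2, LAMA5 and LAMC1, the matrix genes took 0.197% to 0.255% of the units in ENL and 0.307% to 0.325% in control. Among the 28 matrix genes with a mean over all libraries of at least 10 CPM, 12 were lower, 8 higher and 8 did not pass, with a median log2 fold change of -0.35. Over all genes at that level, 18.8% were lower and 24.8% higher. The tested matrix genes also had longer transcripts than the tested genes as a whole, by the longest protein-coding transcript where there was one. The median was 6.23 kb against 3.33 kb, and the GC content 54.8% against 49.3%. Once length and GC were adjusted for, 20 matrix genes were lower and 9 higher, beside 20.6% and 23.6% of all genes, with a median of -0.53.

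To show the genomic setting of the genes with the clearest changes, the stretches of promoter beside their start sites are printed from RefSeq (GRCh38.p14), 5′ to 3′ on the strand given. COL4A1 and COL4A2, which lie head to head and changed in the same direction, have RefSeq starts separated by 126 bases, printed whole. COL4A5 and COL4A6 also lie head to head, of which COL4A6 passed the test and COL4A5 did not, and COL4A6 has a pair of RefSeq starts, an outer one 379 bases and an inner one 1415 bases from the start of COL4A5. SPARC and LAMA5 are shown as large falls among abundant genes, and COL15A1 and BGN as the largest rises. For these, the 250 bases before the RefSeq start are shown. The gene limits given with the results below are those of GENCODE 29, which span all annotated transcripts and can begin further out than the RefSeq start. By those limits COL4A1 and COL4A2 overlap, the stretches of COL15A1, SPARC and the inner start of COL4A6 lie inside the gene, and those of BGN and the outer start of COL4A6 reach into it. Capitals mark the GC box (GGGCGG) and the CCAAT box (CCAAT), each searched on both strands, and the matches of the boxes did not overlap in these stretches.
COL4A1 to COL4A2 (chr13:110307158-110307283, plus strand): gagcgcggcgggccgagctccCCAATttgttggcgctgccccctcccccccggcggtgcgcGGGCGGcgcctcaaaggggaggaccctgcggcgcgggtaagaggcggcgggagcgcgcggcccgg
COL4A5 (chrX:108439588-108439837, plus strand): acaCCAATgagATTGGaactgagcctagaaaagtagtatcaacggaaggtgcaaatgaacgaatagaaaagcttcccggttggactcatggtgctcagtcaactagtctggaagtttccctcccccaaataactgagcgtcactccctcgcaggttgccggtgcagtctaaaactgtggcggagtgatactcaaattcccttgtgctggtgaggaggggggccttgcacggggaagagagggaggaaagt
COL4A6 outer start (chrX:108439459-108439708, minus strand): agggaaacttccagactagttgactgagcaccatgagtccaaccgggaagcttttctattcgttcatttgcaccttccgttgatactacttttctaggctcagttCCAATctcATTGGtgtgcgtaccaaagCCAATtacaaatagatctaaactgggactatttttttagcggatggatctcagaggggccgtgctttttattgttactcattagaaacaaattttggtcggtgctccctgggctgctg
COL4A6 inner start (chrX:108438423-108438672, minus strand): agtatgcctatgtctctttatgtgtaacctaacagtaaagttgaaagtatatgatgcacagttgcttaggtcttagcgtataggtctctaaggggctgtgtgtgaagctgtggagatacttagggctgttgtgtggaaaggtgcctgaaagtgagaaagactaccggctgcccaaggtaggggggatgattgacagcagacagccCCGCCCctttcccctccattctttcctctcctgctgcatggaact
SPARC (chr5:151686916-151687165, minus strand): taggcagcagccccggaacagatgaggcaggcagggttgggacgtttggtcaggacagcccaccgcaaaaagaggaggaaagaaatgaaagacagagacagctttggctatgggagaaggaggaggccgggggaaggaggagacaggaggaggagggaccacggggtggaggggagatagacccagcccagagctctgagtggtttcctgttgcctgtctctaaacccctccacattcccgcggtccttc
LAMA5 (chr20:62367313-62367562, minus strand): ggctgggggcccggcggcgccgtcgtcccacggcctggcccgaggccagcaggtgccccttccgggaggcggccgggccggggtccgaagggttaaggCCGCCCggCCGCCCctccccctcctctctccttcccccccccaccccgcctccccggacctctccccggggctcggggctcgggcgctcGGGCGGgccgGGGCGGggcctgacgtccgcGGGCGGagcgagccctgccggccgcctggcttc
COL15A1 (chr9:98943657-98943906, plus strand): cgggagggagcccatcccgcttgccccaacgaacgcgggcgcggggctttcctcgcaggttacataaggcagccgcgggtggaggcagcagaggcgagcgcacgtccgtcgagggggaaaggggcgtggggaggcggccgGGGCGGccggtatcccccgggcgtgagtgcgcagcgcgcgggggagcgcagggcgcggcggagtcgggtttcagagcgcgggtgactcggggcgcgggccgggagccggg
BGN (chrX:153494730-153494979, plus strand): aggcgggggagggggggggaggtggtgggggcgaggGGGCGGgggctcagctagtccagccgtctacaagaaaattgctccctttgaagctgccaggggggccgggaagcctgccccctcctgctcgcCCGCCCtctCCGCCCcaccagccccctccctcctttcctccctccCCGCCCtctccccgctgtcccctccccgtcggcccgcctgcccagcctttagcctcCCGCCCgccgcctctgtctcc

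The stretch between COL4A1 and COL4A2 held 1 GC box and 1 CCAAT box. In windows of 126 bases before the start, 34.6% of all 35116 RefSeq promoters held a GC box and 21.1% a CCAAT box, and in windows of 250 bases 42.6% and 32.0% did. LAMA5 and BGN held 5 GC boxes each although the one fell and the other rose, COL15A1 held 1, and SPARC held neither box. The outer COL4A6 window had 3 CCAAT boxes and no GC box, and overlaps the COL4A5 window, which had 2 CCAAT boxes, while the inner window had 1 GC box. By symbol, 55 of the 73 genes matched a window in the RefSeq promoter table, of which 36 held a GC box and 17 a CCAAT box. A gene was counted here if at least 1 of its windows held the box. The shares above are per window and a gene can have several, so these counts cannot be compared with them. These matches describe the letters only.

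Laminin chains changed in opposite directions. Of 10 chains tested, 5 were lower, 2 were higher and 3 did not pass. Over all genes tested, 18.4% were lower and 20.0% higher, and the same shares stand beside the class counts that follow. LAMA5, the alpha 5 chain of laminins found in most adult basement membranes (chromosome 20, 62307955 to 62367312, minus strand, GRCh38), had 297, 329.9 and 379 CPM in the ENL libraries, against 903, 927 and 961 CPM in the control libraries. All ENL libraries lay far below all control libraries, the log2 fold change being -1.47 ± 0.11 (SE, n = 3 per group, edgeR adjusted p = 0.000142). LAMA2, the alpha 2 chain known from muscle and nerve (chromosome 6, 128883141 to 129516569, plus strand), had 6.71, 7.25 and 7.63 CPM in ENL, against 23.7, 23.0 and 25.0 CPM in control. It too was lower in every ENL library, by a log2 fold change of -1.73 ± 0.11 (adjusted p = 8.98e-05). LAMA3, the alpha 3 chain of the epithelial anchoring laminin, had 70.4, 74.5 and 102 CPM in ENL, against 42.9, 45.3 and 48.6 CPM in control. It was higher in every ENL library, with library 3 the highest, and its log2 fold change was 0.85 ± 0.15 (adjusted p = 0.00501).

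The beta and gamma chains split in the same way. LAMB1, the beta 1 chain shared by many laminins (chromosome 7, 107923799 to 108003255, minus strand), had 251, 257 and 320.0 CPM in ENL, against 412, 428 and 445 CPM in control, a log2 fold change of -0.64 ± 0.11 (adjusted p = 0.00452). LAMC1, the gamma 1 chain that joins most laminins (chromosome 1, 183023460 to 183145592, plus strand), had 837, 856 and 1006 CPM in ENL, against 702, 699 and 742 CPM in control, a log2 fold change of 0.33 ± 0.09 (adjusted p = 0.0301). Neither gene's groups overlapped, so the partner chains moved apart. The call of LAMC1 was lost under upper-quartile scaling (adjusted p = 0.0734), library totals (0.378) and without control library 1 (0.0968), 2 (0.0999) or 3 (0.0712). LAMB2, the beta 2 chain, had 184, 209.5 and 210.4 CPM in ENL, against 222, 251 and 249.6 CPM in control, and did not pass (-0.26 ± 0.09, adjusted p = 0.0571), although it passed in 6 of 16 other settings, among them the replicate block (0.0332). LAMB3, the beta chain that joins LAMA3 in the epithelial anchoring laminin, was lower (-1.04 ± 0.27, adjusted p = 0.0215), unlike LAMA3. Its call was lost without ENL library 1 (0.0654) or 3 (0.0563) or control library 1 (0.0686) or 2 (0.0702).

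Per kb of transcript, the order of the abundant alpha chains was the same in both groups but the gap narrowed. LAMA5 had 29.4 ± 3.62 CPM per kb in ENL and 81.4 ± 2.52 in control, and LAMA3 had 7.71 ± 1.58 in ENL and 4.27 ± 0.268 in control (SD, n = 3 each). The ratio of LAMA5 to LAMA3 was therefore 3.85 ± 0.331 in ENL and 19.1 ± 0.602 in control. This ratio does not depend on the scaling of the libraries. Its size does depend on the transcript lengths used, 11.4 kb for LAMA5 and 10.7 kb for LAMA3, and which transcripts were expressed was not measured. The ratio of LAMC1 to LAMB1 was 2.39 ± 0.0805 in ENL and 1.22 ± 0.0252 in control. These ratios were chosen after the values were seen and were not tested. LAMA4, the alpha 4 chain of vessels, had 6.54 ± 0.451 CPM in ENL and 7.001 ± 0.883 CPM in control and did not pass (-0.10 ± 0.15, adjusted p = 0.629).

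**Figure D2:**
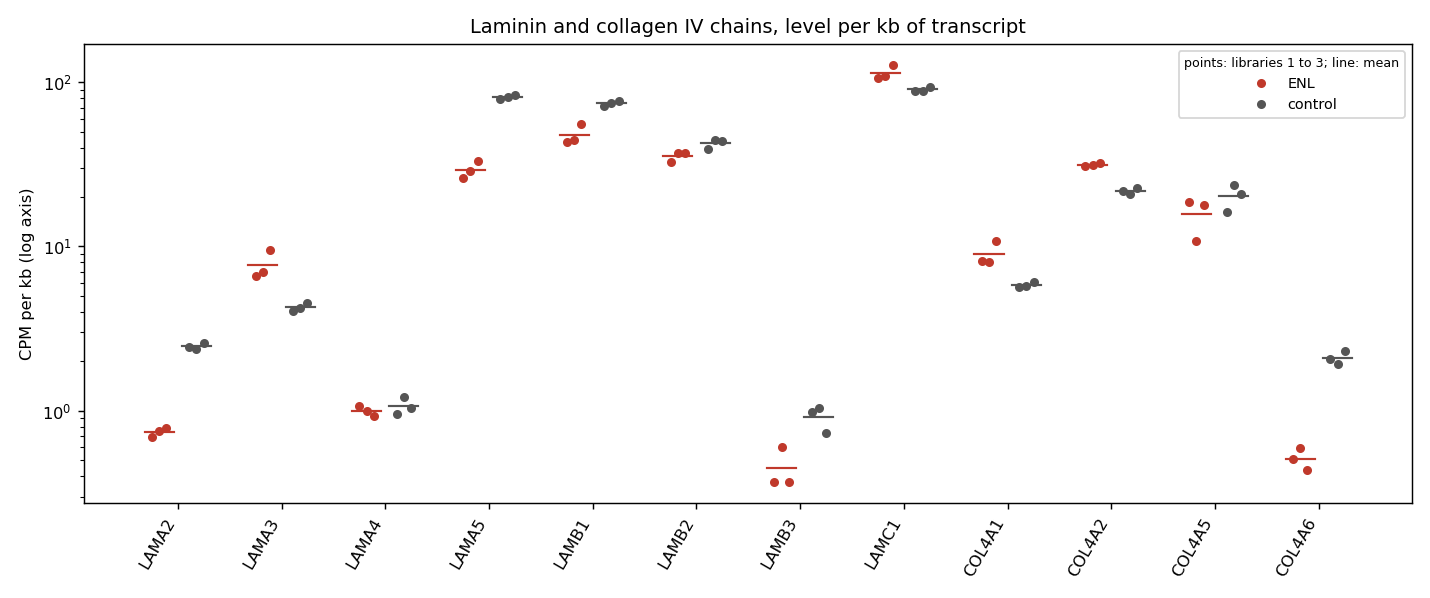
Level of 8 laminin and 4 collagen IV chains in CPM per kb of the longest annotated protein-coding transcript (y axis, log scale), with 1 point per library and a line at the mean, ENL left of control. LAMA5 averaged 29.4 in ENL and 81.4 in control, LAMA3 7.71 in ENL and 4.27 in control, and COL4A6 0.510 in ENL and 2.10 in control.

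Collagen IV, the network collagen of basement membranes, showed the same kind of split. Of its 6 chains 5 were tested, and 2 were higher and 1 lower. COL4A1 had 53.7, 53.5 and 71.6 CPM in ENL, against 37.5, 38.1 and 40.0 CPM in control, and COL4A2 had 199.5, 203 and 209 CPM in ENL, against 141, 134.5 and 148 CPM in control. These chains form the commonest collagen IV trimer and lie head to head on chromosome 13, at 110148963 to 110307233 (minus strand) and 110305812 to 110513209 (plus strand). Both were higher in every ENL library, by 0.63 ± 0.13 (adjusted p = 0.00970) and 0.53 ± 0.07 (adjusted p = 0.00170) on the log2 scale, though COL4A1 did not pass with library totals as the scale (0.0643). Their ratio per kb, COL4A2 over COL4A1, was 3.54 ± 0.492 in ENL and 3.73 ± 0.122 in control, so it differed by less than the spread between ENL libraries.

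The other head-to-head pair lies on chromosome X, and a difference between its genes' changes was not tested. COL4A6 (108155607 to 108439497, minus strand), a chain of smooth muscle and epithelial basement membranes, had 3.41, 3.99 and 2.93 CPM in ENL, against 14.01, 13.0 and 15.5 CPM in control. It had the largest fall among collagens above 5 CPM, -2.04 ± 0.16 (adjusted p = 0.000216), with no overlap between the groups. COL4A5 (108439844 to 108697545, plus strand) had 120.2, 70.1 and 115 CPM in ENL, against 104, 153 and 135 CPM in control, so its groups overlapped and it did not pass (-0.36 ± 0.24, adjusted p = 0.278). The ratio of COL4A5 to COL4A6 per kb was 36.7, 18.3 and 41.0 in the ENL libraries and 7.76, 12.3 and 9.05 in the control libraries.

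The basement membrane collagens XV and XVIII, whose ends can be released as endostatin-like fragments, also moved apart. COL15A1 (chromosome 9, 98943179 to 99070792, plus strand) had 71.0, 72.1 and 94.1 CPM in ENL, against 37.2, 37.8 and 39.2 CPM in control, a log2 fold change of 1.05 ± 0.13 (adjusted p = 0.00108). COL18A1 averaged 65.4 ± 5.39 CPM in ENL and 91.9 ± 5.77 CPM in control, a log2 fold change of -0.49 ± 0.09 (adjusted p = 0.007). Every ENL library was above every control library for COL15A1 and below for COL18A1. Exons of COL18A1 overlap those of SLC19A1 on the opposite strand over 1401 bases, counted over all annotated exons of both genes. SLC19A1 had a log2 fold change of -0.49 ± 0.12, and without strand the reads in the shared bases cannot be told apart.

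Among the fibrillar collagens 3 of 7 tested were lower and 4 did not pass, with a median of -0.93. COL5A1, which starts and sizes collagen fibrils (chromosome 9, 134641774 to 134844843, plus strand), had 98.3, 106 and 116 CPM in ENL, against 200.1, 196 and 214 CPM in control. It was the most abundant fibrillar chain per kb in both groups, and its log2 fold change was -0.93 ± 0.09 (adjusted p = 0.000387). COL5A2 did not pass (-0.12 ± 0.25, adjusted p = 0.730), but without ENL library 3 its log2 fold change was -0.46 (adjusted p = 0.00986). COL27A1, a fibrillar chain of cartilage, was lower by a log2 fold change of -0.97 ± 0.25 (adjusted p = 0.0206), a call lost without ENL library 2 (0.0527) or control library 1 (0.0631) or 3 (0.0653).

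The chains of collagens I and III, the main fibrillar collagens of connective tissue, were at low levels. COL1A1 had 4.64, 4.52 and 4.53 CPM in ENL, against 4.45, 12.2 and 4.27 CPM in control, COL3A1 had 6.25, 5.68 and 6.26 CPM in ENL, against 7.58, 20.0 and 7.56 CPM in control, and COL1A2 had 0.351, 0.675 and 0.686 CPM in ENL, against 1.73, 5.85 and 2.28 CPM in control. Control library 2 stood well above the other control libraries for all 3, and the ENL libraries differed little for COL1A1 and COL3A1. COL1A2 was lower in ENL (-2.52 ± 0.54, adjusted p = 0.0111, and -1.81 with adjusted p = 0.0227 without control library 2), while COL1A1 (-0.61 ± 0.42, adjusted p = 0.297) and COL3A1 (-0.95 ± 0.40, adjusted p = 0.112, but 0.0322 in the DESeq2 Wald test) did not pass. Without control library 2, the log2 fold change was 0.07 for COL1A1 (adjusted p = 0.806) and -0.32 for COL3A1 (adjusted p = 0.176).

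**Figure D3:**
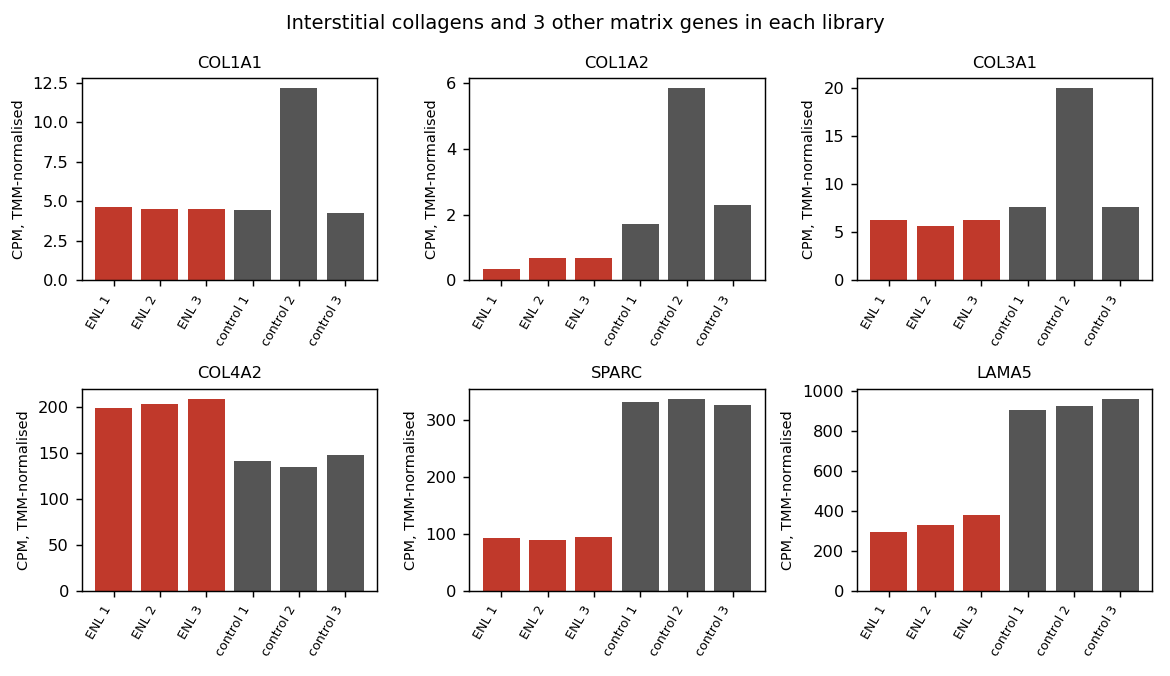
CPM (y axis, starting at 0) in each of the 3 ENL and 3 control libraries for COL1A1, COL1A2, COL3A1, COL4A2, SPARC and LAMA5. Control library 2 reached 12.2 CPM for COL1A1 and 20.0 CPM for COL3A1, above every other library, but did not stand apart for COL4A2, SPARC or LAMA5.

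Other markers of connective tissue moved with this library. DCN and LUM, small proteoglycans of stroma, reached 1.10 and 0.950 CPM in control library 2 and at most 0.586 and 0.144 CPM in the other 5 libraries. PDGFRB and PTPRC reached 1.18 and 1.197 CPM there, and 5 of the 9 markers of other cell types were highest in it. PDGFRB, a receptor of fibroblasts and pericytes, had 0.117, 0.176 and 0.241 CPM in the ENL libraries, against 0.492 and 0.482 CPM in control libraries 1 and 3, and was lower in ENL (-1.997 ± 0.576, adjusted p = 0.0315), as was COL1A2. KRT6A, a squamous keratin, and JCHAIN, a plasma cell gene, chosen after their values were seen, had 9.37 and 5.96 CPM in control library 2 and at most 0.566 and 0.937 CPM elsewhere. Of the 14086 genes tested, 217 were at least 2-fold higher in control library 2 than in both other control libraries, 6 of them matrix genes (COL1A1, COL1A2, COL3A1, COL17A1, DCN and POSTN), and the same count was 153 genes with 0 matrix genes for control library 1 and 178 with 1 for control library 3. The part of these signals in the result for collagens I and III was not tested beyond leaving the library out. Without control library 2, 16 matrix genes were lower and 6 higher, beside 12.8% and 14.9% of all genes.

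Collagen VI, the beaded filament collagen around cells, had 1 chain higher, 1 lower and 1 that did not pass. COL6A1 had 72.4, 72.7 and 72.7 CPM in ENL, against 64.6, 71.7 and 66.3 CPM in control, and did not pass (0.10 ± 0.08, adjusted p = 0.321, and -0.10 with library totals as the scale). COL6A2 averaged 78.0 ± 7.04 CPM in ENL and 60.6 ± 2.80 CPM in control and was higher by 0.36 ± 0.10 (adjusted p = 0.0223), and COL6A3 averaged 8.60 ± 1.33 CPM in ENL and 12.2 ± 1.04 CPM in control and was lower by a log2 fold change of -0.51 ± 0.15 (adjusted p = 0.0362). The call of COL6A2 was lost under upper-quartile scaling (0.0627) and library totals (0.193), and both calls were lost with the replicate number as a block (0.0520 and 0.0592) and when any 1 library was left out, except ENL library 3. Of the remaining collagens 4 were lower, namely COL9A3 (-2.87 ± 0.65), COL23A1 (-2.17 ± 0.33), COL13A1 (-0.77 ± 0.14) and COL12A1 (-0.37 ± 0.09). COL9A3 averaged 0.202 ± 0.126 CPM in ENL and 1.48 ± 0.759 CPM in control, and COL23A1 0.454 ± 0.149 CPM in ENL and 2.06 ± 0.178 CPM in control, levels at which the counting error is large. COL12A1 lost its call when 1 library was left out (0.0506 to 0.0816, except without ENL library 3) and with length and GC adjusted for (0.0760), and COL9A3 lost it without control library 1 (0.0507).

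The matricellular glycoproteins SPARC, TNC and THBS1 fell. SPARC, a collagen-binding protein that regulates matrix assembly (chromosome 5, 151661096 to 151687165, minus strand), had 93.5, 89.4 and 95.3 CPM in ENL, against 330.2, 336 and 326 CPM in control. The libraries of each group lay close together, and the ENL level was lower by 3.57-fold (log2 fold change -1.83 ± 0.07, adjusted p = 1.93e-05). Tenascin C, TNC, an anti-adhesive protein of tumour stroma (chromosome 9, 115019578 to 115118257, minus strand), had 69.1, 65.5 and 80.4 CPM in ENL, against 130.2, 157 and 168 CPM in control, a log2 fold change of -1.08 ± 0.13 (adjusted p = 0.000975). THBS1, which binds CD36 and CD47 and can activate latent TGF-beta (chromosome 15, 39581079 to 39599466, plus strand), had 21.2, 21.0 and 25.1 CPM in ENL, against 47.4, 42.6 and 48.2 CPM in control, a log2 fold change of -1.04 ± 0.11 (adjusted p = 0.000683). All 3 kept non-overlapping groups and passed in all 16 other settings.

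**Figure D4:**
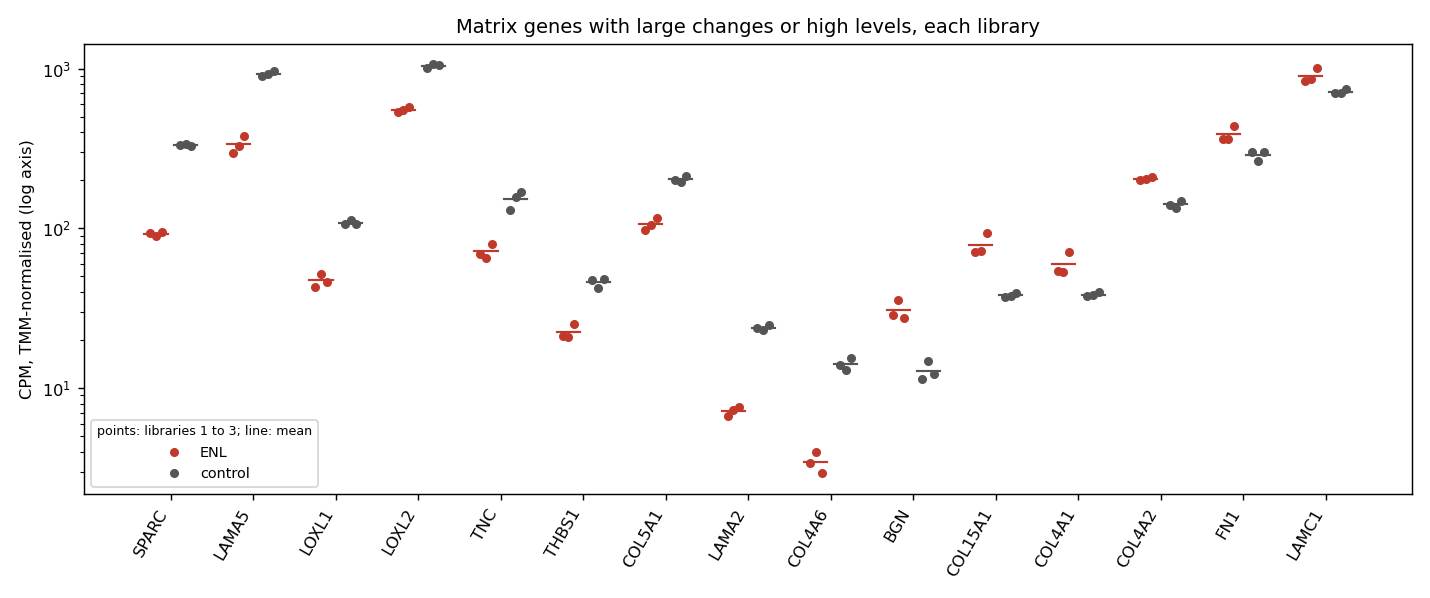
CPM (y axis, log scale) of 15 matrix genes in each library, with a line at the mean of each group, ENL left of control. The libraries of the groups are separate for each gene, from SPARC with means of 92.7 in ENL and 331 in control to LAMC1 with means of 899.5 in ENL and 714 in control.

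Fibronectin was the 1 glycoprotein of this set that was called higher. FN1, the main adhesive glycoprotein of provisional matrix (chromosome 2, 215360440 to 215436172, minus strand), had 363, 364 and 436 CPM in ENL, against 301, 266 and 303 CPM in control, and its groups did not overlap. It was higher by 0.42 ± 0.10 on the log2 scale (adjusted p = 0.0180), a call lost with library totals as the scale (0.201) and without control library 2 (0.0678). THBS2, the paralog of THBS1, had 35.9, 36.5 and 44.9 CPM in ENL, against 28.7, 19.4 and 31.7 CPM in control, and did not pass (0.55 ± 0.20, adjusted p = 0.0615), although it passed with the replicate block (0.0356), in the DESeq2 Wald test (0.0242) and with length and GC adjusted for (0.0231). FBN1, the fibrillin of microfibrils, had 97.6, 44.1 and 137 CPM in ENL, against 142, 138 and 152 CPM in control. The ENL libraries were all below the control libraries but far apart from each other, and the gene did not pass (-0.64 ± 0.39, adjusted p = 0.249). POSTN and FBN2 were below 1 CPM on average in both groups and did not pass.

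Biglycan was the matrix gene with the largest called rise. BGN, a small proteoglycan of collagen fibrils (chromosome X, 153494939 to 153509554, plus strand), had 28.5, 35.9 and 27.5 CPM in ENL, against 11.4, 14.9 and 12.3 CPM in control. It was 2.39-fold higher (log2 fold change 1.25 ± 0.16, adjusted p = 0.00127), and its groups did not overlap. VCAN, a large hyaluronan-binding proteoglycan, had 13.4, 13.6 and 17.98 CPM in ENL, against 9.42, 13.0 and 6.06 CPM in control, and did not pass (0.66 ± 0.28, adjusted p = 0.109), but passed without control library 2 (0.0362).

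Lysyl oxidases, the copper enzymes that cross-link collagen and elastin, had 2 of 5 members lower and 3 that did not pass, and all 5 log2 fold changes were below 0. LOXL2, which had the highest level per kb of all the matrix genes in both groups, had 537, 551 and 572 CPM in ENL, against 1007, 1062 and 1048 CPM in control, a log2 fold change of -0.91 ± 0.07 (adjusted p = 0.000210). LOXL1, linked to elastic fibres (chromosome 15, 73925989 to 73952137, plus strand), had 43.2, 51.9 and 46.5 CPM in ENL, against 107, 112 and 106 CPM in control, a log2 fold change of -1.20 ± 0.09 (adjusted p = 0.000195). Both separated the groups fully and passed in all 16 other settings. LOX itself had 107.0, 91.9 and 122 CPM in ENL, against 145, 125 and 134 CPM in control, and did not pass (-0.33 ± 0.12, adjusted p = 0.0642), although it passed in 6 of 16 other settings, among them the replicate block (0.0469). LOXL3 and LOXL4 stayed below 1 CPM on average, with adjusted p-values of 0.610 and 0.174. The class as a whole summed to 708 ± 28.9 CPM in ENL and 1284 ± 20.8 CPM in control (SD, n = 3 each).

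Genes that make and process collagen, a list drawn up from their known roles, were also more often lower than higher. Of 26 tested, 15 were lower, 2 (P4HA3 and CRTAP) were higher and 9 did not pass, with a median log2 fold change of -0.41, where 18.4% of all genes tested were lower and 20.0% higher. PLOD2, which hydroxylates telopeptide lysines for cross-links, had 48.8, 39.9 and 47.8 CPM in ENL, against 94.3, 93.7 and 83.8 CPM in control (-0.99 ± 0.11, adjusted p = 0.000735). P3H2, a prolyl 3-hydroxylase active on collagen IV, had 27.1, 28.5 and 28.9 CPM in ENL, against 49.6, 47.0 and 50.2 CPM in control (-0.80 ± 0.08, adjusted p = 0.000612). P3H4, a partner of lysyl hydroxylase, was lower by a log2 fold change of -0.90 ± 0.14 (adjusted p = 0.00314). P4HA1, a prolyl 4-hydroxylase subunit, had 37.3, 37.1 and 40.7 CPM in ENL, against 57.1, 53.9 and 102 CPM in control, where library 3 stood apart (-0.88 ± 0.25, adjusted p = 0.0322), and its call was lost without any 1 of the ENL libraries (0.0828 to 0.0971). SERPINH1, the collagen chaperone HSP47, was among the lower genes, as were the propeptide-cleaving enzymes BMP1, ADAMTS2, ADAMTS3 and ADAMTS14. ADAMTS3 averaged only 0.156 ± 0.0720 CPM in ENL and 0.566 ± 0.222 CPM in control (adjusted p = 0.0454), where a few fragments decide the value. Without ENL library 1, 10 of the genes were lower and 2 higher, beside 14.1% and 15.9% of all genes.

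**Figure D5:**
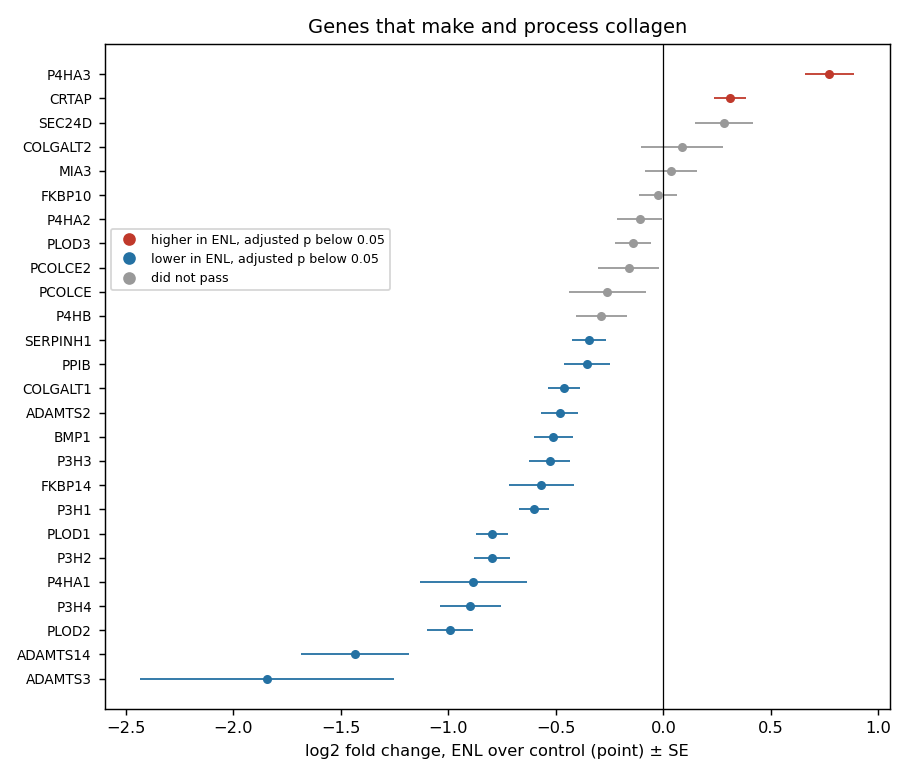
Log2 fold change of ENL over control (x axis, points) with its standard error (bars) for the 26 tested genes that make and process collagen, from 3 libraries per group. The 15 genes in blue were lower and the 2 in red, P4HA3 and CRTAP, higher in ENL at an adjusted p below 0.05.

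Of 29 other basement membrane and fibre genes tested, 8 were higher and 7 lower, with a median of -0.04, beside 20.0% higher and 18.4% lower over all genes tested. EFEMP1, a fibulin of elastic tissue, had 27.8, 30.4 and 37.7 CPM in ENL, against 15.7, 13.9 and 13.4 CPM in control (1.16 ± 0.14, adjusted p = 0.00123). NID1, which links laminin to collagen IV, had 13.3, 17.1 and 19.0 CPM in ENL, against 30.8, 30.7 and 28.9 CPM in control (-0.87 ± 0.15, adjusted p = 0.00393). FBLN2, a fibulin that binds basement membranes, was lower (-0.73 ± 0.08, adjusted p = 0.000904) and MATN2, a filament-forming matrilin, higher (0.76 ± 0.12, adjusted p = 0.00325). Under upper-quartile scaling 5 were higher and 9 lower, beside 16.7% and 22.3% of all genes. With library totals as the scale 5 were higher and 11 lower, beside 12.8% and 28.4% of all genes. When 1 library was left out, 3 to 6 were higher, beside 2072 to 3156 higher genes in all.

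Of 21 receptors for collagen, laminin, fibronectin and thrombospondin that were tested, 2 (ITGB4 and CD44) were higher and 3 (ITGA3, ITGA6 and ITGB5) lower, beside 20.0% and 18.4% of all genes tested. ITGB4, the beta chain of the laminin receptor of hemidesmosomes, had 115, 126 and 134 CPM in ENL, against 76.2, 75.8 and 78.1 CPM in control (0.70 ± 0.08, adjusted p = 0.000929). ITGA6, its alpha partner, had 13.1, 12.3 and 26.9 CPM in ENL, against 43.4, 34.8 and 40.2 CPM in control (-1.18 ± 0.32, adjusted p = 0.0299). ITGB5, a subunit of a vitronectin receptor, was lower (-0.62 ± 0.08, adjusted p = 0.00133), as was ITGA3, a laminin receptor subunit (-0.43 ± 0.12, adjusted p = 0.0289). The call of ITGA6 was lost without ENL library 1 (0.0826) or 2 (0.0744) or any 1 control library (0.0606 to 0.0852). That of ITGA3 was lost without ENL library 1 (0.0758) or 2 (0.0783) or control library 2 (0.0832) or 3 (0.0947). The lower receptors numbered 1 to 5 over the libraries left out, beside 1743 to 2877 lower genes in all.

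The remaining 18 matrix genes were too low to be tested. COL11A1, COL6A5 and LAMB4 were at 0 in all 6 libraries, and no untested gene exceeded 0.950 CPM in any library. The untested genes also included COL2A1, COL10A1, LAMA1, LUM and COL4A3, whose differences were not assessed because the filter on low counts removed them. Several tested genes share exon bases with a gene on the opposite strand, and the sources used here do not say if strand was used in counting, so reads in those bases could be assigned to either gene. For LAMA5 this was ADRM1 over 244 bases, and ADRM1 was higher (0.61 ± 0.12), opposite to LAMA5. For LOX it was SRFBP1 over 138 bases, which was also higher (0.84 ± 0.12). For THBS1 it was FSIP1 over 448 bases, which averaged 0.171 ± 0.157 CPM in ENL and 0.455 ± 0.0655 CPM in control, far below THBS1. LOXL2 shares 120 exon bases with ENTPD4 on the same strand, which did not pass (-0.28 ± 0.10, adjusted p = 0.0703).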

How the data were processed

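RNA sequencing of BT549 cells gave 3 ENL and 3 control libraries, grouped by the label, with columns matched by name. Per the submitters' processing notes, FastQC, STAR, StringTie, DESeq2 and hg38 were used, with no versions or roles. No source used here names the annotation. The authors' deposited values are an estimated count per gene, in whole numbers that needed no rounding. Of the values from 4 to 43, 70.8% to 73.1% per library were a multiple of 4 or 1 above it. From this excess 1 fragment was taken to be worth about 4 units, which no source used here states. If so, low values carry more counting error than their size shows.

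In R 4.3.3, low genes were removed by filterByExpr at a minimum count of 10. TMM scaling and the robust glmQLFit and glmQLFTest of edgeR 4.0.16 followed, with group as the only term. Standard errors come from the F statistic. Alternatives used limma 3.58.1, DESeq2 1.42.0, mgcv 1.9.3 and the settings named in the closing section. Per-length levels use the longest protein-coding GENCODE 29 transcript (GRCh38, the assembly that hg38 names), or the longest of any type where none is protein-coding. A transcript was found for 19809 of 19923 genes (99.4%), and for 14025 of 14086 tested. Exon overlaps were counted from 100 bases.

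No pair of replicates agreed within sampling noise (chi-square per degree of freedom 17.4 or more within a group). The genes and lists were chosen with earlier results of these data known. Members named with each library's value are those called with at least 2-fold change and 5 CPM in the higher group, those of at least 100 CPM, a fixed set of 16, and those added for their class or partner. From each pathway list the 4 called genes with the largest change at 5 CPM or more are named, and others for small counts. Some single genes are counted in the totals and not reported here.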

Additional observations from a re-analysis of the deposited data

How the results depend on the processing

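Of the 28 matrix genes called, 14 of the 20 lower and 4 of the 8 higher kept their call in all 16 other settings in which they were tested, and no called gene changed sign. Over 845 single results, 770 kept both sign and call, 45 lost the call, 21 gained it and 9, of genes that passed in neither setting, changed sign. With library totals these were COL16A1 (-0.0131) and COL6A1 (-0.10), and with length and GC adjusted for LAMA4 (0.0169). When 1 library was left out, the others ranged from -0.83 to 0.0818 for COL11A2, -1.03 to 0.11 for DCN, -0.46 to 0.0532 for COL5A2, -0.86 to 0.0662 for COL1A1 and -0.18 to 0.00397 for LAMA4. Leaving out 1 library at a time gave 6 to 8 higher and 14 to 20 lower matrix genes, a median log2 fold change from -0.64 to -0.45, and 2072 to 3156 higher and 1743 to 2877 lower genes in all. Library totals alone gave 4 higher matrix genes, 1804 higher and 3996 lower genes in all, and a matrix median of -0.77. The median was -0.68 with upper-quartile scaling, -0.50 with limma-voom, -0.49 with counts divided by 4, -0.40 for the 29 genes with at least 10 CPM in 3 libraries, and -0.53 with length and GC adjusted for. With the replicate block it was -0.49, with 8 higher and 20 lower matrix genes, beside 2631 higher and 2310 lower of the 14086 genes tested. Beside those named, the block ended 1 further call. Whether same-numbered samples were paired is not stated in the labels. Their deviations correlated by 0.0355, 0.111 and 0.107, and each sample correlated best with its own number. Correlations this small cannot decide the question, and pairing was not tested further. The median's moves under limma-voom, the block and the other settings were larger than its spread over ENL libraries of 0.04, and the cause was not tested, except that the stricter filters tested fewer genes. The settings for the pathway lists were added after the data were seen. Low depth limits genes below about 1 CPM, where a few fragments decide the value.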
